A study of Populus tomentosa with 15 samples.

Results

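The genes described here were those with a high and nearly level transcript abundance in every group of *P. tomentosa* suspension cells, that is, a mean of at least 200 FPKM in each of 5 groups and a largest group mean less than 1.5 times the smallest. FPKM is the number of sequenced fragments of a gene for a given gene length and a given number of mapped fragments in the library. Of 42635 features in the expression table, 47 met the rule (0.110%). They made up 12.7% of the 369 genes that reached 200 FPKM in every group. In the remaining 322 abundant genes, the largest group mean was at least 1.5 times the smallest. All 47 passed the filter on low values that left 24694 genes for the fold change fit, which asked for 3 libraries with an FPKM of 1 or more. Because the rule was applied to the group means, the levels, ratios and fold changes between groups are given as a description of the selected genes. Counts of genes called in a fit over all genes are printed for these contrasts, and they test nothing about the set.

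Total RNA from suspension cells, which are plant cells dispersed in shaken liquid medium, had been sequenced in 15 libraries, 3 per group. The WT cells were untreated. The *anti-3* cells were a line carrying a *PtomtAPX*-antisense construct, and *anti-3*-A cells were the same line after 3 h in 1 mM ascorbate (AsA). The *OX* cells overexpressed *PtomtAPX* from the 35S promoter, and *OX*-H cells were *OX* cells after 3 h in 10 mM H2O2. All cells were kept in the dark at 25 °C and 140 rpm and were collected 5 days after subculturing. By the study's account, *anti-3* was 1 of several antisense lines and the overexpressing cells needed an added cytokinin to grow, a condition that cannot be told apart from the transgene. The libraries analysed here held no WT cells treated with either agent and no mock-treated cells. The labels name neither separate cultures nor batches, so the spread between libraries of a group may be technical.

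*PtomtAPX* encodes an ascorbate peroxidase, an enzyme that reduces H2O2 to water with AsA as the electron donor. Genes with abundant and level transcripts are widely used in plants as internal references for qRT-PCR, where the target transcript is divided by the reference in each sample. In growing plant cells the most abundant nuclear transcripts commonly encode ribosomal proteins, translation factors, cytoskeletal proteins and glycolytic enzymes. Which of these, if any, the 47 genes encode was not determined, since their identifiers were not paired with names, functions or sequences in the sources used here. Of the 47 identifiers, 46 had the POPTR form of the *P. trichocarpa* annotation and 1 was a feature listed as Novel00062. They are therefore described by identifier. The level of *PtomtAPX* itself was not analysed here for the same reason.

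The 15 libraries held 15618191 to 21278437 mapped reads (median 17889817), as worked back from the FPKM values. The lowest correlation between replicate libraries of a group was 0.995, and every replicate pair differed by more than sampling noise, so that each library was counted once. The depth behind each of the 47 genes was large. The fewest reads of a gene in any library ranged from 1471 to 19679 over the genes, with a median of 5343. The counting error at those reads was 0.713% to 2.61% (median 1.37%), and it covers counting only. In bulk RNA, fewer cells of a type and less RNA per cell cannot be told apart, and an FPKM value is relative to the rest of the library.

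The mean over 15 libraries ran from 234 FPKM in POPTR_0005s24300 to 1487 FPKM in POPTR_0001s30310, with a median gene at 367 FPKM. The mean was above 900 FPKM in 5 genes, above 500 FPKM in 12, and below 300 FPKM in 12. Ranked by mean FPKM among all features, the genes took places from 23 to 651, so the highest abundance in these cells was found in genes outside the set. The ratio of largest to smallest group mean ran from 1.21 to 1.49 with a median of 1.41. It was at least 1.4 in 25 genes, so that most of the set lay in the upper part of the allowed range. The median ratio was 2.06 for the other 322 abundant genes (1.51 to 9.75) and 2.43 for the tested genes with a mean above 0 in every group.

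**Figure D1:**
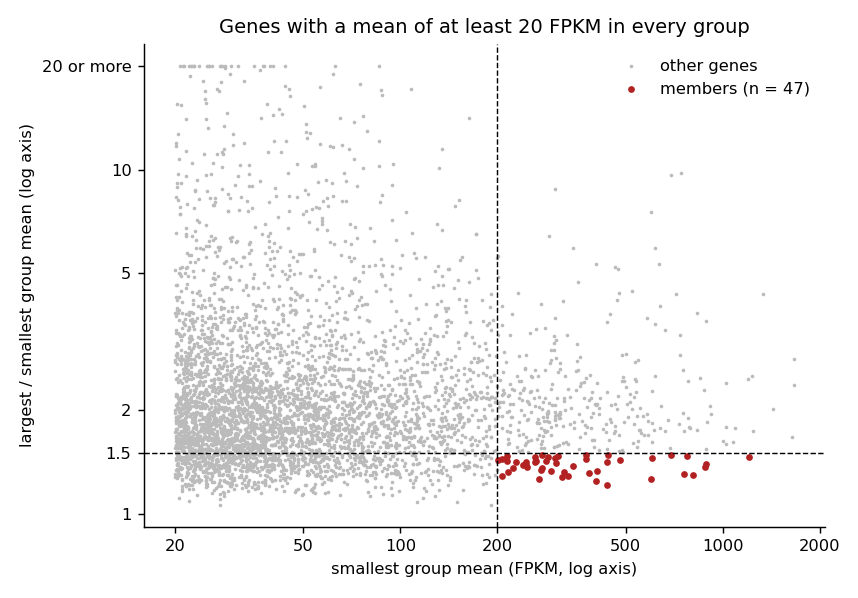
Each point is a gene with a mean of at least 20 FPKM in every group, plotted by its smallest group mean (FPKM, log axis) and its ratio of largest to smallest group mean (log axis), with ratios of 20 or more drawn at 20. The 47 selected genes (red) fill the corner right of the line at 200 FPKM and below the line at 1.5. Most of them lie closer to the upper line than to a ratio of 1.

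The most abundant selected gene was POPTR_0001s30310, with a length of 281 bp. It had 1442, 1490 and 1378 FPKM in WT, 1470, 1484 and 1407 in *anti-3* cells, 1799, 1738 and 1753 in *anti-3*-A, 1179, 1270 and 1172 in *OX*, and 1536, 1603 and 1584 in *OX*-H. The *anti-3*-A libraries were the highest and the *OX* libraries the lowest, neither overlapping any other group, while WT and *anti-3* overlapped. Its ratio was 1.46, and without *OX* replicate 2 it lay just outside the limit.

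POPTR_0009s02070 (mean 1039 FPKM) was also highest in *anti-3*-A, at 1169, 1337 and 1222 FPKM against 1070, 1060 and 1078 in WT and 1071, 1089 and 1022 in *anti-3*. It had 889, 952 and 962 FPKM in *OX* and 955, 886 and 822 in *OX*-H. These last groups overlapped and lay below all other libraries, and the ratio was 1.40.

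POPTR_0004s23900 (mean 1036 FPKM) was the least even of the set between replicates, with a within-group coefficient of variation (CV, the SD over the mean of 3 libraries, averaged over the groups) of 8.25%. It had 1058, 1215 and 1164 FPKM in WT, 885, 776 and 979 in *anti-3* cells, 1080, 1080 and 1041 in *anti-3*-A, 961, 799 and 879 in *OX*, and 1240, 1324 and 1055 in *OX*-H. The *anti-3* and *OX* libraries had overlapping ranges and were all below the other libraries, which overlapped among themselves. The group means gave a ratio of 1.37, but the single libraries spanned 1.71 times, the widest span of the 47 genes.

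POPTR_0011s14790 was the shortest of the 47 genes at 189 bp and among the most even between replicates, with a within-group CV of 2.15%. Its values were 1037, 1062 and 1050 FPKM in WT, 962, 962 and 988 in *anti-3* cells, 1083, 1032 and 1033 in *anti-3*-A, 794, 849 and 783 in *OX*, and 919, 935 and 930 in *OX*-H. WT and *anti-3*-A overlapped at the top, and *anti-3*, *OX*-H and *OX* followed in that order without overlap. The ratio was 1.30.

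POPTR_0008s03900 (mean 946 FPKM) had the reverse order of treated cells, with 1111, 1207 and 1121 FPKM in *OX*-H and 822, 778 and 730 in *anti-3*-A. WT had 924, 952 and 1006 FPKM, *anti-3* 844, 844 and 840, and *OX* 1010, 1103 and 895. The *OX* libraries spread over the whole range of WT, and the *OX*-H libraries were above all others. Its ratio was 1.48.

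**Figure D2:**
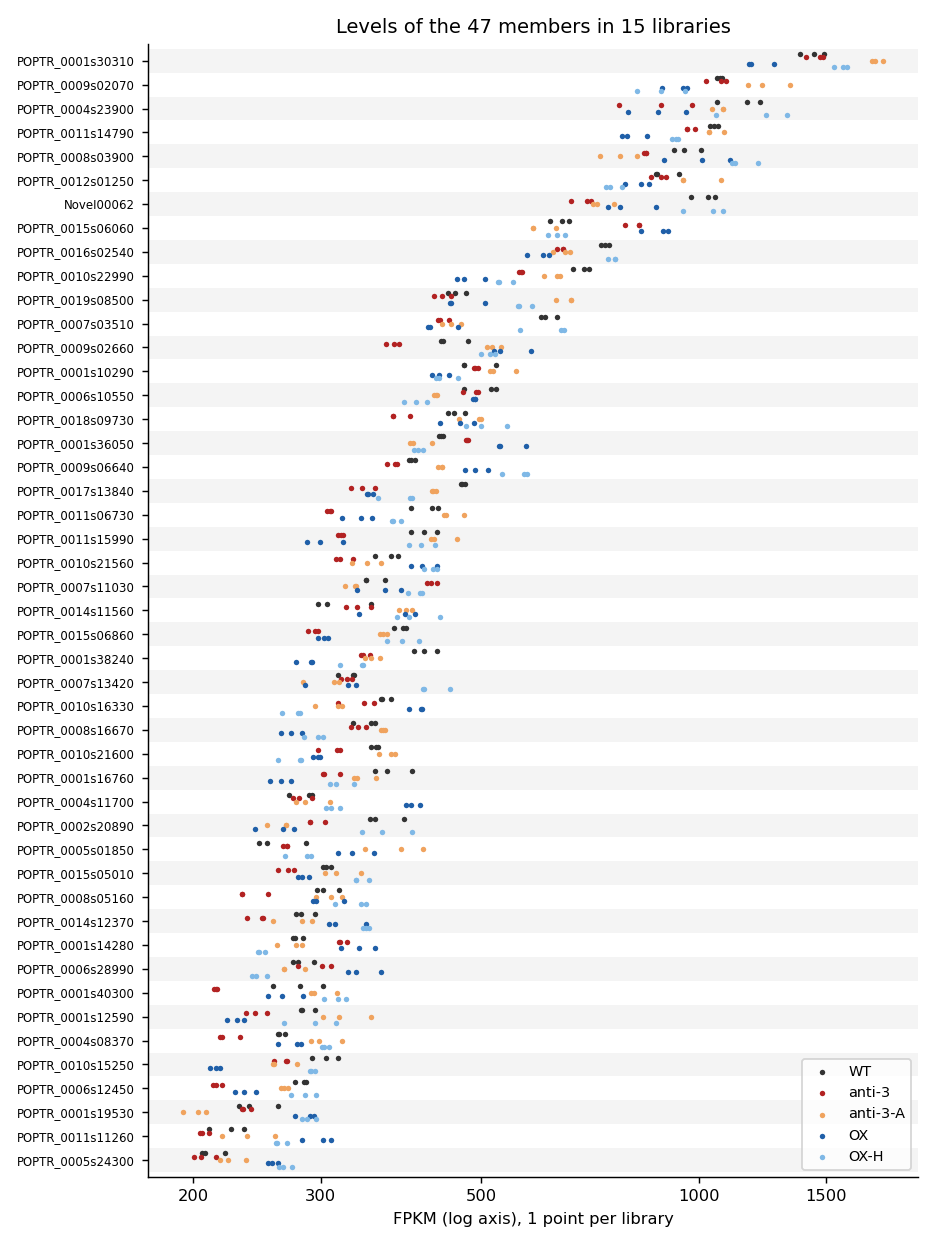
The FPKM (log axis) of the 47 selected genes, ordered by mean, with 1 point per library coloured by group. The genes span 234 to 1487 FPKM in mean, and within a row the 3 libraries of a group mostly lie together while the groups sit apart in an order that differs from gene to gene.

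The most level gene was POPTR_0001s10290, whose group means ran from 438 FPKM in *OX* to 531 FPKM in *anti-3*-A, a ratio of 1.21. It had 473, 524 and 474 FPKM in WT, 489, 494 and 490 in *anti-3* cells, 559, 519 and 514 in *anti-3*-A, 427, 451 and 437 in *OX*, and 437, 465 and 433 in *OX*-H. The groups overlapped in a chain: WT with *anti-3* and *anti-3*-A, and *OX* with *OX*-H, with every *OX* and *OX*-H library below every other library. The single libraries spanned 1.31 times, the narrowest span of the 47 genes.

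POPTR_0006s10550 had a ratio of 1.24. It had 474, 524 and 517 FPKM in WT, 471, 495 and 492 in *anti-3* cells, 433, 435 and 430 in *anti-3*-A, 490, 490 and 487 in *OX*, and 406, 420 and 391 in *OX*-H. The untreated WT, *anti-3* and *OX* cells overlapped, and the treated *anti-3*-A and *OX*-H cells were below them without overlap.

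POPTR_0016s02540 had the smallest within-group CV of the set, 1.97%, and a ratio of 1.26. It had 750, 733 and 741 FPKM in WT, 637, 649 and 649 in *anti-3* cells, 664, 629 and 652 in *anti-3*-A, 578, 620 and 608 in *OX*, and 766, 765 and 749 in *OX*-H. The *OX*-H and WT libraries were at the top with a slight overlap, and *OX* lay below the rest.

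POPTR_0015s05010 had a ratio of 1.26. Its values were 305, 302 and 310 FPKM in WT, 275, 270 and 262 in *anti-3* cells, 304, 341 and 315 in *anti-3*-A, 279, 283 and 289 in *OX*, and 350, 335 and 336 in *OX*-H. Here *anti-3* was lowest and *OX*-H highest in mean, and 1 *anti-3*-A library reached into the range of *OX*-H.

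POPTR_0014s11560 was 1 of 2 genes of the set with the lowest mean in WT, where it had 306, 297 and 352 FPKM. It had 337, 325 and 352 FPKM in *anti-3* cells, 394, 401 and 385 in *anti-3*-A, 392, 404 and 339 in *OX*, and 397, 439 and 383 in *OX*-H. The ratio was 1.28 with a within-group CV of 6.32%, the second widest of the set. The libraries of WT, *anti-3* and *OX* overlapped.

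At the edge of the ratio limit, the selected genes just inside were POPTR_0009s06640 (1.487) and POPTR_0010s16330 (1.484). POPTR_0009s06640 had 404, 397 and 400 FPKM in WT, 371, 383 and 380 in *anti-3* cells, 441, 441 and 435 in *anti-3*-A, 474, 511 and 490 in *OX*, and 578, 573 and 533 in *OX*-H, an order with no overlap between any groups. POPTR_0010s16330 had 375, 364 and 363 FPKM in WT, 345, 355 and 317 in *anti-3* cells, 295, 321 and 317 in *anti-3*-A, 398, 414 and 413 in *OX*, and 281, 279 and 265 in *OX*-H. The *OX* libraries of the latter gene were above and its *OX*-H libraries below all others. The genes just outside were POPTR_0013s01830 (1.508; group means 493 to 743 FPKM) and POPTR_0006s22210 (1.514; 249 to 377 FPKM). With library medians aligned, these had ratios of 1.30 and 1.42, so both moved by more than their distance from the genes just inside.

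At the floor of 200 FPKM, the smallest group means inside were 201.5 FPKM in POPTR_0001s19530 (*anti-3*-A) and 206.5 FPKM in POPTR_0011s11260 (*anti-3*). POPTR_0001s19530 had 208, 203 and 193 FPKM in *anti-3*-A against 231, 239 and 262 in WT and 234, 233 and 240 in *anti-3*. It had 290, 293 and 276 FPKM in *OX* and 287, 295 and 283 in *OX*-H, which overlapped at the top. Just under the floor were POPTR_0010s05030 (199.7 FPKM in *anti-3*) and POPTR_0017s13430 (199.0 FPKM in *anti-3*-A). The former had a within-group CV of 16.9%, wider than in any selected gene, with *anti-3*-A libraries at 199, 265 and 144 FPKM.

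The feature listed as Novel00062 (mean 854 FPKM, 360 bp) had 1028, 977 and 1053 FPKM in WT and 1046, 1080 and 950 in *OX*-H. It had 709, 700 and 665 FPKM in *anti-3* cells, 762, 723 and 715 in *anti-3*-A, and 778, 872 and 749 in *OX*. WT and *OX*-H overlapped and were above all other libraries. Its group means had the widest CV of the set, 18.6%. It was described after its values were seen.

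The rule did not use the spread between replicates. The within-group CV of the 47 genes had a median of 3.45% (1.97% to 8.25%), against 3.88% (1.46% to 12.4%) for the other 322 abundant genes and 9.04% for all tested genes. It was below 5% in 41 of 47 selected genes and in 245 of 322 others. These shares are descriptions, and no test was made over genes, which share their libraries. By group, the median CV of the selected genes was 3.59% in WT, 2.46% in *anti-3*, 3.80% in *anti-3*-A, 4.51% in *OX* and 3.17% in *OX*-H. The most even group was thus *anti-3* and the least even *OX*. The same held for the other 322 abundant genes, with medians of 2.64% in *anti-3* and 4.96% in *OX*.

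Level between groups did not mean equal between groups. The CV of the 5 group means was 7.93% to 18.6% (median 13.5%), and it exceeded the within-group CV in all 47 genes. The same held for the other 322 abundant genes, where the lowest CV between groups was 14.9% and the highest within-group CV 12.4%. For POPTR_0001s10290, the most level gene, the values were 7.93% between and 3.55% within groups. For POPTR_0014s11560, the values were closest in this named set, 10.2% between and 6.32% within. The corresponding median between groups was 28.8% for the other 322 abundant genes. Taken over single libraries rather than group means, the highest value was 1.31 to 1.71 times the lowest (median 1.52), and 21 of 47 genes stayed below 1.5.

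**Figure D3:**
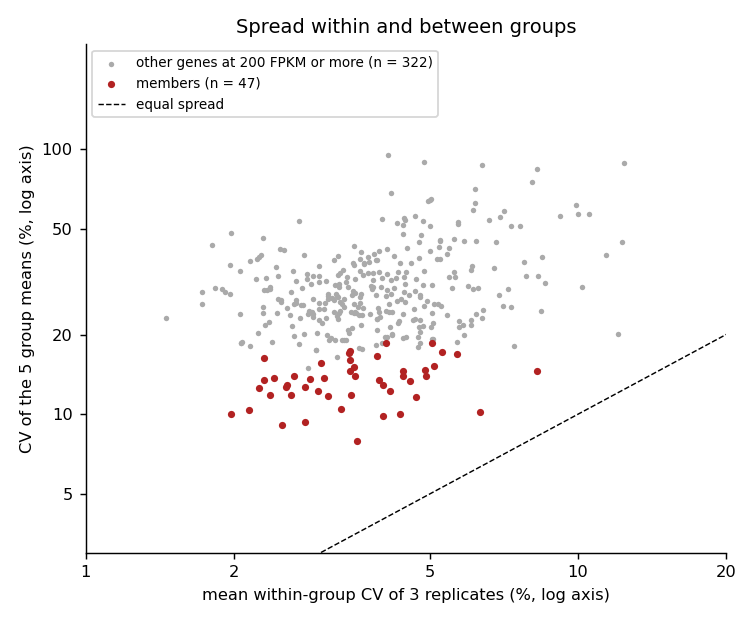
Each point is a gene with at least 200 FPKM in every group, plotted by its mean within-group CV over 3 replicates (%, log axis) and by the CV of its 5 group means (%, log axis). All 47 selected genes (red) and the other 322 genes (grey) lie above the dashed line of equal spread. The selected genes have medians of 3.45% within and 13.5% between groups. Along the horizontal axis they cover much the same range as the other genes.

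The same measure was then read in libraries that had taken no part in the choice. When the rule was applied to replicates 2 and 3, it chose 44 genes, of which 35 (79.5%) had a ratio below 1.5 in the 5 libraries of replicate 1. With replicate 2 left out, 37 of 47 chosen genes (78.7%) were below 1.5, and with replicate 3 left out, 37 of 46 (80.4%). For all genes at 200 FPKM or more in the libraries used, the chosen genes included, the shares were 11.7%, 11.4% and 11.6%. The median ratio of the chosen genes in the left-out libraries was 1.40 to 1.43, against 1.96 to 2.0 for the abundant genes. The highest ratio of a chosen gene in the left-out libraries was 2.04. The groups and conditions were the same in the left-out libraries, so this describes repetition between libraries and not other conditions. Replicates of a group may be technical and differed little (median within-group CV 3.45%), so a high share was likely from the choice itself.

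Levels were then described across the conditions. The highest group mean was in *OX*-H for 20 of the 47 genes, in *anti-3*-A for 11, in *OX* for 8, in WT for 7 and in *anti-3* for 1. The lowest was in *anti-3* for 18, in *OX* for 14, in *OX*-H for 7, in *anti-3*-A for 6 and in WT for 2. The commonest combination, highest in *OX*-H and lowest in *anti-3*, held for 12 genes, among them POPTR_0009s06640 and POPTR_0015s05010. Among the other 322 abundant genes the highest mean was most often in *anti-3*-A (138) or *OX*-H (114) and the lowest in *anti-3* (164) or *OX* (100). The single gene with its highest mean in *anti-3* was POPTR_0007s11030, at 426, 435 and 421 FPKM against 346, 368 and 346 in WT and 324, 335 and 336 in *anti-3*-A.

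These positions moved with the scaling of the libraries. After the library medians were aligned, the highest mean was in *OX*-H for 19 genes, *OX* for 11, *anti-3*-A for 7, *anti-3* for 6 and WT for 4. The lowest was in *anti-3*-A for 13, *OX* for 10, *anti-3* for 9, WT for 8 and *OX*-H for 7. POPTR_0001s10290, for example, was then highest in *anti-3* and lowest in *OX*-H, with a ratio of 1.17.

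The selected genes were summed up for each library by their geometric mean. This mean was 429 ± 3.07 FPKM in WT, 385 ± 2.2 in *anti-3*, 424 ± 5.33 in *anti-3*-A, 406 ± 9.75 in *OX* and 433 ± 9.16 in *OX*-H (SD, n = 3). Relative to WT these were 89.8% for *anti-3*, 99.0% for *anti-3*-A, 94.8% in *OX* and 101.1% in *OX*-H. The *anti-3* libraries lay below those of all other groups. The median FPKM of all tested genes was at 87.0%, 100.9%, 88.8% and 92.5% of WT in the same order of groups. Both measures were lowest in *anti-3*, but in *OX*-H the selected genes were at the level of WT and the median of all tested genes was below it. The part of these library-wide differences in the levels of single genes was not tested.

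**Figure D4:**
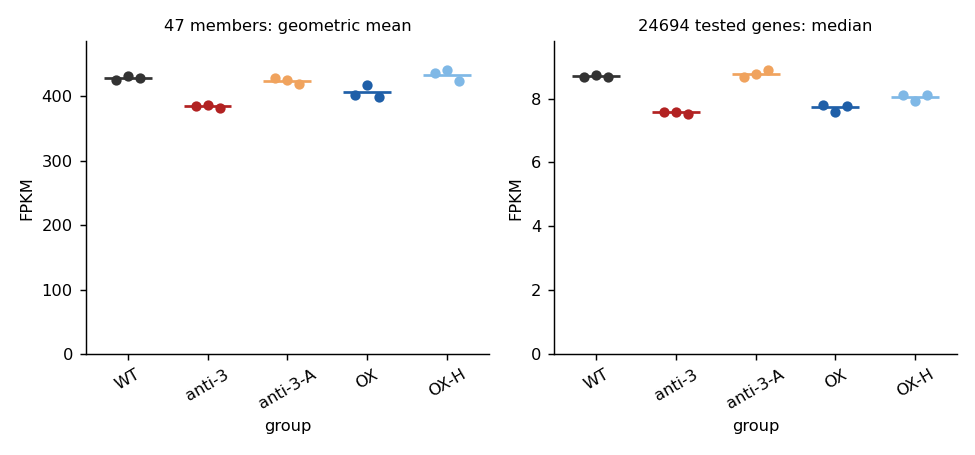
Points are libraries and bars are group means, for the geometric mean FPKM of the 47 selected genes (left) and the median FPKM of the 24694 tested genes (right), both axes starting at 0. In both panels *anti-3* is the lowest group, at 89.8% of WT on the left and 87.0% on the right.

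The 47 genes took a small share of each library. They held 2.76 ± 0.021% of the summed FPKM in WT, 2.52 ± 0.020% in *anti-3*, 2.72 ± 0.015% in *anti-3*-A, 2.52 ± 0.048% in *OX* and 2.64 ± 0.059% in *OX*-H (SD, n = 3). All *anti-3* and *OX* libraries were below all WT libraries in this share. As a share of mapped reads, this was 1.79% to 1.97% of a library. All 369 abundant genes together held 30.9% of the summed FPKM in WT, 23.9% in *anti-3*, 32.0% in *anti-3*-A, 25.0% in *OX* and 32.8% in *OX*-H. The abundant genes as a whole thus took a smaller share in both untreated transgenic lines than in WT and in the treated cells, and the selected genes, chosen for level values, moved less.

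Fold changes of the selected genes were taken from a fit over all 24694 tested genes (limma, log2 of FPKM + 1), with a gene called at an adjusted p below 0.05 and no fold threshold. Since the rule limited these same contrasts, the counts are printed beside the background and nothing is read from them. In *anti-3* against WT, 31 of 47 genes were called against a background of 73.6%, 4 higher (23.1% of all tested genes) and 27 lower (50.5%). The lowest log2 fold change was -0.56 ± 0.06 (SE) in Novel00062 and the highest 0.34 ± 0.05 in POPTR_0015s06060. POPTR_0015s06060 had 623, 661 and 646 FPKM in WT and 826, 827 and 790 in *anti-3*, with no overlap. The median log2 fold change was -0.19 over the selected genes and -0.26 over all tested genes. After alignment of the library medians, 28 were called (68.4% of all tested genes), 19 of them higher and 9 lower. Quantile normalization gave 34 (69.8%), 3 higher and 31 lower. With the libraries scaled to the geometric mean of the set, 32 were called (69.0% of all tested genes), 17 higher and 15 lower. That scaling makes the mean level of the set equal in all libraries, so its near-even split was built in. The larger side of the split in this comparison thus turned with aligned medians and not with quantile normalization.

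In *anti-3*-A against WT, 22 genes were called against a background of 37.5%, 10 higher (20% of all tested genes) and 12 lower (17.5%). The log2 fold changes ran from -0.47 ± 0.06 in Novel00062 to 0.54 ± 0.07 in POPTR_0005s01850. The latter gene had 286, 253 and 246 FPKM in WT and 345, 387 and 416 in *anti-3*-A, again without overlap. The medians were -0.02 over the selected genes and 0.02 over all tested genes. With aligned medians 19 were called (36.9% of all tested genes), 7 higher and 12 lower, and with quantile normalization 25 (38.1%), 6 higher and 19 lower.

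In *OX* against WT, 37 genes were called against a background of 78.4%, 15 higher (31.7% of all tested genes) and 22 lower (46.7%). POPTR_0001s38240 had the lowest log2 fold change, -0.54 ± 0.04, and POPTR_0004s11700 the highest, 0.50 ± 0.05. The medians were -0.06 over the selected genes and -0.18 over all tested genes. With aligned medians they were 0.11 and -0.04, and 36 were called (76.9% of all tested genes), 22 higher and 14 lower. Quantile normalization gave 38 (77.0%), 16 higher and 22 lower, which kept the larger side of the deposited values. Scaling to the geometric mean of the set gave 37 (77.4%), 18 higher and 19 lower.

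In *OX*-H against WT, 34 genes were called against a background of 70.2%, 18 higher (29.3% of all tested genes) and 16 lower (40.9%). The extremes were POPTR_0010s16330 at -0.42 ± 0.05 and POPTR_0009s06640 at 0.49 ± 0.04, the same genes that lay just inside the ratio limit. The medians were 0.01 and -0.10. With aligned medians 31 were called (68.4% of all tested genes), 23 higher and 8 lower. With quantile normalization the split turned, with 28 called (69.2%), 9 higher and 19 lower, and without WT replicate 3 it was 14 higher and 15 lower.

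When *anti-3*-A was set against *anti-3*, 37 genes were called against a background of 75.5%, 29 higher in *anti-3*-A (51.8% of all tested genes) and 8 lower (23.7%). POPTR_0019s08500 had the highest log2 fold change, 0.57 ± 0.05, and POPTR_0015s06060 the lowest, -0.43 ± 0.05. POPTR_0015s06060 had 635, 590 and 590 FPKM in *anti-3*-A, in the range of WT or below it and under all *anti-3* libraries. The medians were 0.15 over the selected genes and 0.27 over all tested genes. With aligned medians 25 were called (70.5% of all tested genes), 9 higher and 16 lower. Quantile normalization gave 32 (71.5%), 23 higher and 9 lower, which kept the larger side of the deposited values. Scaled to the geometric mean of the set, 31 were called (71.8%), 15 higher and 16 lower, a near-even split built in by that scaling.

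When *OX*-H was set against *OX*, 37 genes were called against a background of 72.2%, 27 higher in *OX*-H (43.3% of all tested genes) and 10 lower (28.9%). The log2 fold changes ran from -0.57 ± 0.05 in POPTR_0010s16330 to 0.50 ± 0.05 in POPTR_0007s03510. POPTR_0015s06060 was here at 831, 892 and 906 FPKM in *OX* and 653, 636 and 618 in *OX*-H. The medians were 0.15 and 0.14. With aligned medians 31 were called (71.4% of all tested genes), 19 higher and 12 lower. Quantile normalization gave 34 (71.3%), 19 higher and 15 lower, and scaling to the geometric mean of the set 32 (70.3%), 19 higher and 13 lower. The comparisons with WT share its 3 libraries, and each is given by its own values only.

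With the cutoffs in the study's methods, 0.001 for the adjusted p and 1.5 for the size of the log2 fold change (its results text words the latter as a fold change), none of the 47 genes could be called, as the rule requires. The background at these cutoffs was 8.19% in *anti-3*, 0.458% in *anti-3*-A, 11.5% in *OX* and 6.38% in *OX*-H, each against WT, 8.42% in *anti-3*-A against *anti-3* and 8.14% in *OX*-H against *OX*. The precision of the selected genes was higher than that of most genes. The SE of a log2 fold change was 0.04 to 0.09 (median 0.05), against a median of 0.10 over all tested genes, and the median 95% interval was ± 0.10. The SE of the other 322 abundant genes was not summed up, but their median within-group CV was near that of the selected genes (3.88% against 3.45%).

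**Figure D5:**
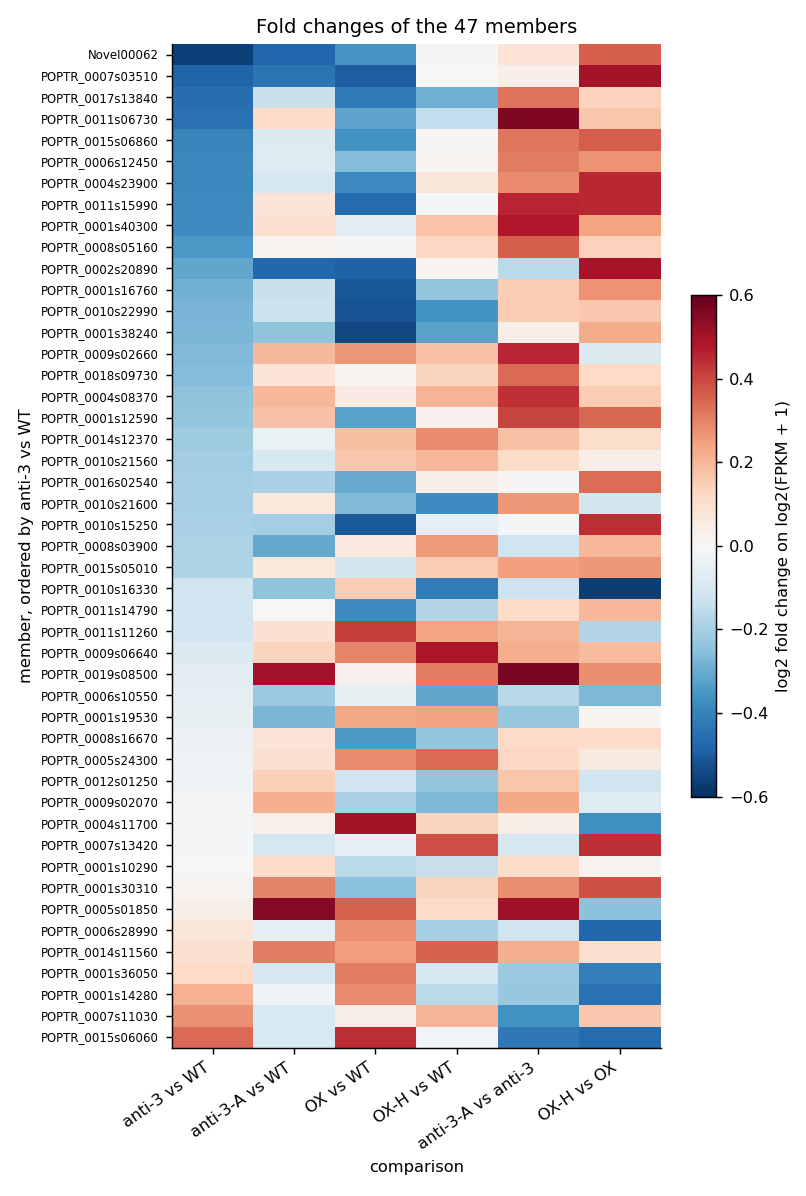
Colour gives the log2 fold change on log2(FPKM + 1) of each of the 47 selected genes (rows, ordered by *anti-3* against WT) in 6 comparisons (columns). Values run from -0.57 to 0.57. The *anti-3* column is mostly blue, with a median of -0.19, while both columns of treated against untreated cells are mostly red, with medians of 0.15. With library medians aligned the medians were 0.01 for *anti-3*, -0.03 for *anti-3*-A, 0.11 for *OX* and 0.12 for *OX*-H, each against WT. They were -0.06 for *anti-3*-A against *anti-3* and 0.09 for *OX*-H against *OX*. With quantile normalization the medians were -0.19, -0.07, -0.08, -0.05, 0.10 and 0.05 in the same order.

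The genes were also compared with each other, as when a transcript is expressed relative to a reference in the same library, which removes any scaling of the library. Over the 1081 pairs of selected genes, the SD of the log2 ratio across the 15 libraries ran from 0.05 to 0.45 with a median of 0.25, and it was below 0.1 in 36 pairs. These are descriptions over 15 libraries in 5 groups. The closest pair was POPTR_0014s12370 and POPTR_0010s21560, whose ratio stayed between 0.714 and 0.823. POPTR_0014s12370 had 278, 295 and 281 FPKM in WT and 343, 350 and 347 in *OX*-H, where POPTR_0010s21560 had 356.5, 384 and 375 in WT and 417, 435 and 429 in *OX*-H. Both were thus higher in *OX*-H than in WT with no overlap, and neither was as level alone as in their ratio.

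The next closest pair was POPTR_0001s10290 and POPTR_0012s01250, whose ratio stayed between 0.522 and 0.594. The farthest pair was POPTR_0011s15990 and POPTR_0015s06060, whose ratio ran from 0.330 to 0.730, so a pair of genes that both met the rule could differ by more than the rule allowed for either. Averaged over its 46 pairs, POPTR_0015s05010 had the smallest SD of the log2 ratio, 0.19, and POPTR_0015s06060 the largest, 0.32.

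The set was described by how far it held under other scalings and without single libraries. The rule gave 62 genes with library medians aligned (35 of the 47 among them), 47 with quantile normalization (40) and 74 with libraries scaled to an equal geometric mean of the set (44), the last chosen after seeing the data. With aligned medians the median ratio of the 47 genes was 1.32, and 11 genes had a ratio of at least 1.5, up to 1.65 in POPTR_0015s06060. POPTR_0008s03900 and POPTR_0001s19530 were among them, at 1.61 and 1.62. Leaving out each library in turn gave 44 to 49 genes, with 43 to 47 of the 47 retained, and the smallest overlap came without *anti-3*-A replicate 1.

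Of the 47 genes, 32 met the rule under all 3 other scalings, 39 without each library in turn, and 29 under all of these. The scaling to the geometric mean of the set was computed from these 47 genes, so it was not independent of them. The 29 included POPTR_0009s02070, POPTR_0004s23900 and POPTR_0011s14790 of the 5 most abundant genes. They also included all 5 genes with the smallest ratio, POPTR_0001s10290, POPTR_0006s10550, POPTR_0016s02540, POPTR_0015s05010 and POPTR_0014s11560. Novel00062 and both genes at the edge of the ratio limit were not among them. The genes at the floor, POPTR_0001s19530 and POPTR_0011s11260, were lost with aligned medians, where the smallest group mean of the former was 188 FPKM and the ratio of the latter 1.501.

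Gene length entered the rule through FPKM, since at equal reads a shorter gene has a higher FPKM and reaches the floor more easily. The lengths are therefore given as a description. The worked-back lengths of the 47 genes ran from 189 bp in POPTR_0011s14790 to 3240 bp in POPTR_0006s28990, with a median of 849 bp. The median was 804.5 bp for the other 322 abundant genes and 1395 bp for all tested genes. The selected genes were thus of a length like that of other abundant genes and shorter than most tested genes. At 281 bp and 321 bp, POPTR_0001s30310 and POPTR_0004s23900 were also short, so that their FPKM rested on fewer reads than the same FPKM would in a longer gene. POPTR_0001s30310 had 6247 to 8909 reads per library, and POPTR_0009s02070, with 1339 bp and a lower FPKM, had 19679 to 30689.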

How the data were processed

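RNA-seq values of 15 *P. tomentosa* suspension cell libraries, grouped by their labels, were used. According to the paper's methods, the authors used SOAPaligner/SOAP2 with up to 2 mismatches to place filtered reads on the genome and gene set of *P. trichocarpa*. The submitters' processing notes name TopHat2 2.0.12, Bowtie2 2.2.3 and HTSeq 0.6.1 instead. The methods give TRIzol for RNA extraction and the labels a column kit. The genome release, annotation, strand setting and handling of multi-mapped reads were not given in the sources used here, so reads of near-identical genes could be split or shared. The authors deposited FPKM per gene and library (RPKM in the paper). They also deposited 4 tables of their own fold changes and p-values, which were not used.

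Python 3.11.15 (numpy 2.4.6, pandas 2.3.3) and matplotlib 3.10.9 were used. Whole reads and gene lengths were worked back from the steps between low FPKM values; each of the 445124 non-zero values gave a whole number to within 0.0001 reads. They served for depth and length, for setting replicate pairs against sampling noise and for the voom fit, and not for the main fit. The set was the genes with a mean of at least 200 FPKM in every group and a largest group mean below 1.5 times the smallest. Its members, the lists and the tests were chosen with earlier results of these data known.

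Fold changes on log2(FPKM + 1) came from the limma-trend method of limma 3.58.1, run in R 4.3.3. This scale slightly understates changes of low genes. The fit held a mean for each group and took in the genes that reached 1 FPKM in 3 or more libraries. P-values were adjusted over all tested genes of a comparison (Benjamini-Hochberg). The script was tested on simulated data. The rule had used these contrasts, so no adjusted p is given for single genes.

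Genes named in the text were the 5 most abundant of the set, the 5 with the smallest ratio, the 2 just inside and 2 just outside the ratio limit, the 2 just inside and 2 just under the floor, and the 2 most and 2 least variable between replicates. The extremes of each comparison, of the pairs and of length, the gene highest in *anti-3*, the most abundant and least abundant genes and Novel00062 were named after their values were seen. Of the 47 identifiers, 0 matched the reference gene table used here, an assembly of *P. tomentosa*. Sequences are therefore not shown.

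The alternatives were aligned library medians, quantile normalization, other floors (100 and 500 FPKM), a stricter and a wider ratio limit, group medians, pseudocounts of 0.1 and 0.5, no filter or 5 FPKM, only the compared groups, an adjusted p below 0.001, no trend, a block for the replicate number, and each library left out. Scaling to the set's geometric mean, voom on whole reads, and aligned medians for the held-out libraries were added after seeing the data.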

Additional observations from a re-analysis of the deposited data

How the results depend on the processing

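The number of genes meeting the rule was set by its limits: 2 with a limit halfway between 1 and 1.5, 195 with a ratio below 2, 137 with a floor of 100 FPKM and 9 with a floor of 500 FPKM, against 47. The 2 and the 9 were all of the 47. Scaled to the geometric mean of the set, 74 genes met it. At an adjusted p below 0.001, 8 genes were called in *anti-3*-A against WT (14.3% of all tested genes), 18 in *OX*-H against WT (48.1%) and 22 in *anti-3*-A against *anti-3* (56.2%). In held-out libraries with aligned medians, 79.7%, 61.8% and 77.4% of the chosen genes stayed below 1.5, the lowest with replicate 2 left out.

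Without single libraries the called genes numbered 29 to 30, 18 to 21, 35 to 38 and 29 to 34 in *anti-3*, *anti-3*-A, *OX* and *OX*-H against WT, 31 to 39 in *anti-3*-A against *anti-3* and 34 to 38 in *OX*-H against *OX*. The shares of all tested genes were 69.9% to 70.6%, 31.1% to 34.3%, 75.6% to 76.2%, 65.9% to 67.1%, 72.0% to 73.3% and 68.7% to 69.4%. The median within-group CV was 2.95% to 3.6% and the share of summed FPKM 2.62% to 2.64%. Of the alternatives for the counts, spread, share and held-out values, 176 stayed close to the reported value and 11 did not. A count was close if it was within a factor of 1.5 of the reported count, whatever its split of higher and lower genes. The other values were close if they differed by less than the SD between groups (spread), libraries (share) or left-out replicates (held-out values). The larger side of the split of higher and lower genes changed with the scaling in every comparison but *anti-3*-A against WT and *OX*-H against *OX*. Aligned medians changed it in *anti-3* and *OX* against WT and in *anti-3*-A against *anti-3*, and quantile normalization only in *OX*-H against WT. In *OX*-H against WT it also changed without WT replicate 3 (14 higher, 15 lower) and at an adjusted p below 0.001 (8 and 10), and it was even without *OX*-H replicate 2 (16 and 16).

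With the replicate number as a block, 31, 23, 37 and 34 genes were called against WT in the same order, and 38 and 36 in the treated against untreated cells (73.3%, 36.7%, 78.2%, 69.8%, 75.3% and 71.8% of all tested genes). With the mean of each group taken out of every gene, same-numbered libraries of different groups correlated at -0.065 to 0.055 over 30 pairs. Libraries with other numbers correlated at -0.077 to 0.083 over 60 pairs. By these correlations 4 of 15 libraries went best with their own number, so the numbers were not read as a pairing. With voom on whole reads, added after seeing the data, the counts were 31, 25, 38, 35, 39 and 39 (74.1%, 39.4%, 79.0%, 70.6%, 75.3% and 71.7%). Depth limited no value of the set, as the fewest reads of a gene in a library were 1471.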
